A study of Mus musculus with 12 samples.

Results

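*Spp1*, *Gpnmb*, *Lgals3*, *Acp5*, *Trem2*, *Cst7*, *Axl*, *Cd68*, *Cd9* and *Fabp5* mark phagocytes that have taken up debris in damaged tissue. Their levels were read in bulk RNA from 12 mouse brains taken 14 d post-stroke. The 10 genes were selected on their read counts in these same libraries, by matching Ensembl identifiers to mouse symbols after the difference between the groups was known, and they are 10 of 49315 genes listed. All 10 had counts in every mouse and passed the filter on low counts, as did 20290 genes in all. Because the difference between the groups chose them, their fold changes are given as a description, without a test.

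The brains came from CD45.1 Pep Boy male recipients that were irradiated with the head shielded at 8 to 12 weeks of age and given mixed bone marrow (BM). In both groups 90% of the BM cells were CD45.1 and *Tet2*+/+. The remaining 10% were CD45.2 cells, *Tet2*+/+ in the 6 mice transplanted with WT BM cells and *Tet2*-/- in the 6 mice transplanted with *Tet2*-KO BM cells. All 12 mice then had the right middle cerebral artery occluded for 30 min, 8 to 10 weeks after transplantation. The question was whether a minority of *Tet2*-deficient blood cells, a model of clonal hematopoiesis, altered the brain after ischemia. The knockout was thus carried by part of the blood-forming cells only, and the resident brain cells of both groups were the recipient's own.

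Phagocytes that engulf myelin, lipid and dying cells enlarge their lysosomes and switch on a shared set of genes, of which many depend on the lipid receptor TREM2 and its signalling partner TYROBP. The set is known from microglia around plaques, from foamy macrophages and from osteoclasts, and in an infarct it is carried both by microglia and by macrophages derived from blood monocytes. Bulk RNA from whole brain does not separate these cells, so fewer phagocytes and less RNA per phagocyte cannot be told apart in any value below.

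The libraries held 12000261 to 15340787 counts in WT mice and 12625047 to 21049763 counts in *Tet2*-KO mice, and levels are given as CPM, the reads of a gene relative to all reads of its library, after TMM scaling. *Tet2* itself, whose loss was limited to the donor part of the blood, was at 132 ± 7.60 CPM in WT and 131 ± 7.79 CPM in *Tet2*-KO mice (SD, n = 6 each, log2 fold change -0.01 ± 0.05 SE, edgeR adjusted p = 0.93), so whole-brain *Tet2* did not check the labels. A pair of libraries stood apart. WT replicate 2 was the highest WT mouse for all 10 genes. *Tet2*-KO replicate 5 was the highest *Tet2*-KO mouse for 9 of them and lay inside the WT range for 9. Values without *Tet2*-KO replicate 5, and without both, are therefore given beside the main ones. That choice was made after the values of these genes were seen. Leaving out the *Tet2*-KO mouse most like WT widens the difference, so those values are no separate support for it.

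The stretches before the gene starts are shown first, as a description of sequence. RefSeq start regions on GRCm38.p6, the build of the counts, were at hand for 9 of the 10 genes and not for *Fabp5*. The 250 bases before 4 of the starts are printed 5′ to 3′ on the gene's own strand. Capitals mark the letters TGANTCA (N is any base, a looser pattern than the AP-1 site), GAGGAA (the core of ETS sites such as those of PU.1) and TATAAA (the TATA box), searched on both strands. *Spp1* and *Gpnmb* are shown for their wide range between mice, and *Cd68* and *Trem2* for holding both TGANTCA and GAGGAA.
*Spp1* (chr5:104434861-104435110, + strand): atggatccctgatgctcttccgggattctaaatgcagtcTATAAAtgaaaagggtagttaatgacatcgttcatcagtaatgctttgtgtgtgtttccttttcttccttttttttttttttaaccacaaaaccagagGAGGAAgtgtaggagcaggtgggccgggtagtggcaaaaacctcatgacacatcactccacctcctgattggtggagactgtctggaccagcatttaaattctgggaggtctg
*Gpnmb* (chr6:49036268-49036517, + strand): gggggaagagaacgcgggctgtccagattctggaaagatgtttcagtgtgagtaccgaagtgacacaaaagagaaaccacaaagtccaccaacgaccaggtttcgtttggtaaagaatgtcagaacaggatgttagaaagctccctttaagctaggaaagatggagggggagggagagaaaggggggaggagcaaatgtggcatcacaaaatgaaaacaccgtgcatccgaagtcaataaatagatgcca
*Cd68* (chr11:69666171-69666420, - strand): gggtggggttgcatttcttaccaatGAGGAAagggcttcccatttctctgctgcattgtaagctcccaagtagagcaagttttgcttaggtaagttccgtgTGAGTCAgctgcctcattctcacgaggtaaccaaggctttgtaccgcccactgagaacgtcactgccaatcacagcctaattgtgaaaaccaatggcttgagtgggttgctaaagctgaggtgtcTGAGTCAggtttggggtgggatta
*Trem2* (chr17:48346151-48346400, + strand): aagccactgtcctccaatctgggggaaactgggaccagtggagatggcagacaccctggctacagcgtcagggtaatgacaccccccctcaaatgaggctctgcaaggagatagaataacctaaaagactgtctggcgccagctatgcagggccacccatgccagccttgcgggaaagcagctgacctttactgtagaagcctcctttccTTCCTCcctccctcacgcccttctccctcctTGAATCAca

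GAGGAA was found before *Spp1*, *Axl*, *Cd68* and *Trem2*, in 4 of the 12 start regions listed for these genes, against 23.3% of all 32851 start regions in the same table. TGANTCA was found before *Cd68*, as TGAGTCA, and before *Trem2*, as TGAATCA, in 2 of 12 regions against 6.75% of all. The E-box letters CATGTG, bound by the MiT/TFE family, were found before *Cd9* and before 1 of the 3 starts of *Acp5*, in 2 of 12 regions against 12.3% of all. CACGTG was in none of the 12 and in 6.02% of all. TATAAA was found before *Spp1* alone of these genes, against 12.4% of all, and lay 211 bases before that start. No matched motifs overlapped. These are matches of letters and nothing was measured on them here.

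*Spp1*, *Gpnmb*, *Lgals3* and *Acp5* had the lowest *Tet2*-KO levels relative to WT among the 10 genes, at 3.18- to 4.33-fold below WT by the fitted ratio. The other 6 genes, *Trem2*, *Cst7*, *Axl*, *Cd68*, *Cd9* and *Fabp5*, were 1.49- to 1.99-fold below WT. All 10 had a lower fitted level in *Tet2*-KO mice, with a median log2 fold change of -0.96, against a median of 0.01 over all 20290 tested genes.

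**Figure D1:**
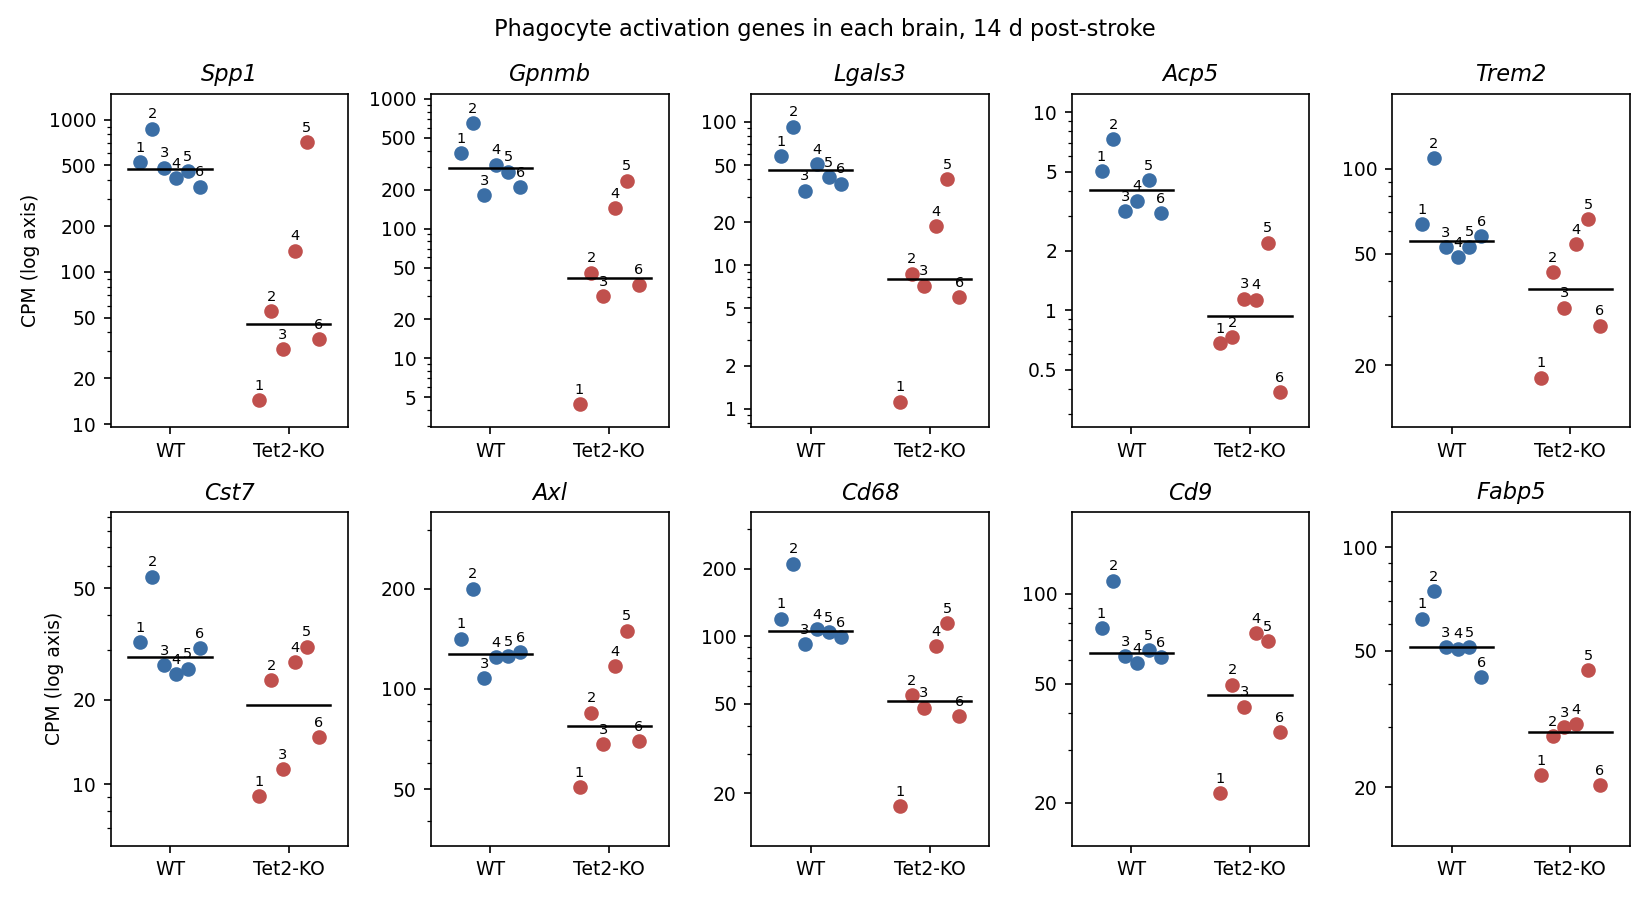
Level of each of the 10 genes in every brain, in CPM on a log axis, for 6 WT (blue) and 6 *Tet2*-KO (red) mice, with replicate numbers beside the points and a line at each group's median. WT replicate 2 is the top WT point in all 10 panels, and in the *Spp1* panel *Tet2*-KO replicate 5 (709.5 CPM) sits above 5 of the 6 WT mice.

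*Spp1* (ENSMUSG00000029304, chr5:104435118-104441050, + strand) encodes osteopontin, a secreted matrix glycoprotein that binds integrins and CD44. Its level was 363 CPM in the lowest WT mouse, 471 CPM at the WT median and 874 CPM in the highest, and 14.3, 45.6 and 709.5 CPM at the same points of the *Tet2*-KO group. Of the 6 *Tet2*-KO mice 5 lay below every WT mouse, while *Tet2*-KO replicate 5 lay above all WT mice but replicate 2. Group means were 519 ± 182 CPM in WT and 164 ± 271 CPM in *Tet2*-KO mice (SD, n = 6), and the log2 fold change was -1.67 ± 0.88 (SE). Without *Tet2*-KO replicate 5 it was -3.23 ± 0.55. Another annotated transcript on the same strand, *Gm42793*, shares exonic bases with *Spp1* and held 281 counts in all libraries together, against 231 to 12180 counts of *Spp1* per library.

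*Gpnmb* (ENSMUSG00000029816, chr6:49036546-49070929, + strand), a lysosomal membrane glycoprotein and target of the MiT/TFE factors, had 182, 293 and 649 CPM in the lowest, median and highest WT mouse. *Tet2*-KO mice had 4.40, 41.3 and 235 CPM. Replicates 1, 2, 3, 4 and 6 of the *Tet2*-KO group were below the WT range, and replicate 5 was inside it. The log2 fold change was -2.02 ± 0.75 (SE) and -2.67 ± 0.71 without *Tet2*-KO replicate 5.

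*Lgals3* (ENSMUSG00000050335, chr14:47367751-47386160, + strand) encodes galectin-3, a lectin that gathers on damaged lysosomes. Levels in WT mice ran from 33.0 CPM over a median of 45.8 to 92.7 CPM. In *Tet2*-KO mice they ran from 1.12 CPM over a median of 7.97 to 39.9 CPM. The groups overlapped through *Tet2*-KO replicate 5 alone. The log2 fold change was -1.95 ± 0.62 (SE), and -2.61 ± 0.52 without that mouse.

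*Acp5* (ENSMUSG00000001348, chr9:22126727-22135711, - strand) encodes tartrate-resistant acid phosphatase, a lysosomal enzyme that can dephosphorylate osteopontin and is best known from osteoclasts. It was the lowest of the 10 in counts, with 39 to 102 per WT library and 5 to 28 per *Tet2*-KO library, so the counting error of its single values was wide. Levels were 3.09, 4.05 and 7.32 CPM in the lowest, median and highest WT mouse and 0.38, 0.93 and 2.20 CPM in *Tet2*-KO mice. *Acp5* was the only one of the 10 genes with no overlap between the groups, *Tet2*-KO replicate 5 included, against 0.641% of the 20290 tested genes with every *Tet2*-KO mouse below every WT mouse. Its log2 fold change was -2.11 ± 0.32 (SE), and -2.41 ± 0.29 without *Tet2*-KO replicate 5. A transcript on the other strand, *6530413G14Rik*, overlaps exons of *Acp5* with 66 counts in all, and the strand setting of the counting was not given in the sources used here.

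Among the receptors, *Trem2* (ENSMUSG00000023992, chr17:48346401-48354147, + strand), which senses lipids and signals through TYROBP, had 48.5, 55.3 and 109 CPM in the lowest, median and highest WT mouse. The *Tet2*-KO values were 18.1, 37.5 and 66.2 CPM. *Tet2*-KO replicates 4 and 5 were inside the WT range and the other 4 below it. The log2 fold change was -0.67 ± 0.32 (SE). *Axl* (ENSMUSG00000002602, chr7:25757273-25788705, - strand), a TAM receptor kinase that binds dying cells through GAS6, ran from 108 over 127 to 200.04 CPM in WT mice and from 50.7 over 77.2 to 149.5 CPM in *Tet2*-KO mice. Again replicates 4 and 5 were inside the WT range, and the log2 fold change was -0.62 ± 0.26 (SE).

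*Cd68* (ENSMUSG00000018774, chr11:69664213-69666153, - strand), a glycoprotein of the lysosomal membrane used to stain phagocytes, had 92.3, 106 and 211 CPM in the lowest, median and highest WT mouse. *Tet2*-KO mice had 17.5, 51.4 and 114 CPM, with 5 of 6 below the WT range. *Tet2*-KO replicate 4, at 90.4 CPM, was just below the lowest WT mouse. The log2 fold change was -0.99 ± 0.39 (SE). *Cst7* (ENSMUSG00000068129, chr2:150570415-150578944, + strand) encodes cystatin F, an inhibitor of lysosomal cathepsins such as cathepsin C. It ran from 24.6 over 28.5 to 54.9 CPM in WT mice and from 9.05 over 19.1 to 30.9 CPM in *Tet2*-KO mice. *Tet2*-KO replicates 4 and 5 reached the WT range and the other 4 did not, and the log2 fold change was -0.74 ± 0.33 (SE).

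*Cd9* (ENSMUSG00000030342, chr6:125460266-125494791, - strand) is a tetraspanin that is also made outside the phagocytes, for instance by oligodendrocytes. Its WT levels were 58.5, 63.3 and 111 CPM and its *Tet2*-KO levels 21.6, 45.8 and 73.9 CPM. It was the only gene for which *Tet2*-KO replicate 4, and not replicate 5, was highest in its group. The log2 fold change, -0.58 ± 0.29 (SE), was the smallest of the 10. *Gm26728* on the other strand shares exonic bases with *Cd9* and held 231 counts in all. *Fabp5* (ENSMUSG00000027533, chr3:10012548-10016607, + strand), a carrier of fatty acids, had 41.9, 51.2 and 74.7 CPM in WT and 20.2, 29.0 and 43.9 CPM in *Tet2*-KO mice. Only *Tet2*-KO replicate 5 reached the WT range. Its log2 fold change was -0.93 ± 0.19 (SE).

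**Figure D2:**
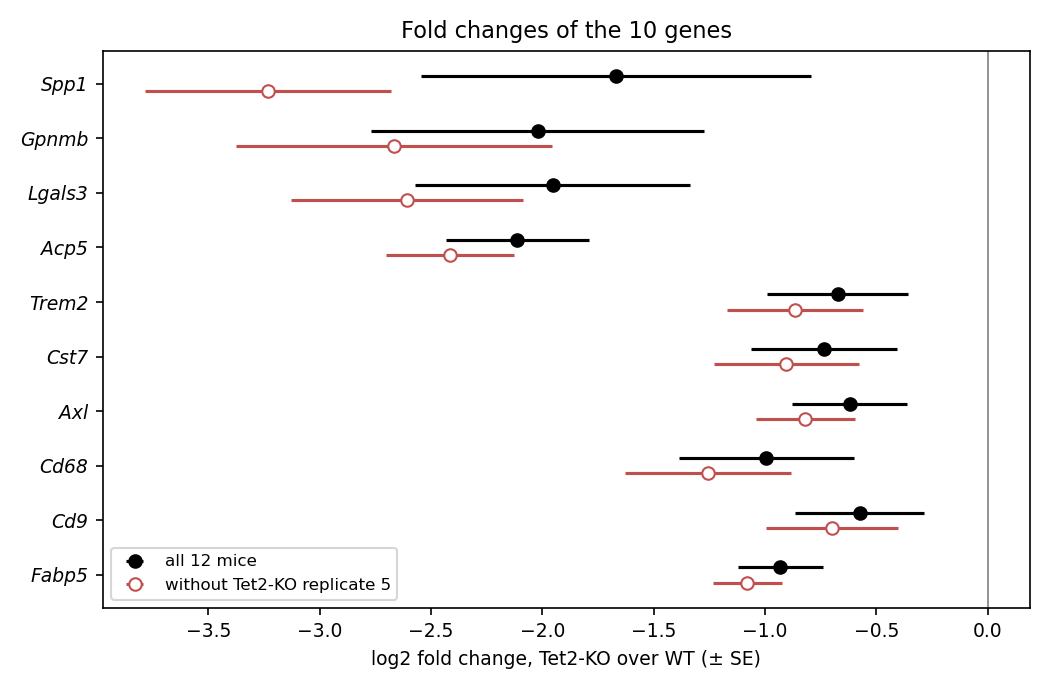
Log2 fold change of each gene, *Tet2*-KO over WT, with bars for ± 1 SE, in all 12 mice (filled) and without *Tet2*-KO replicate 5 (open, red). Every point is below 0, and *Spp1* moves most, from -1.67 to -3.23.

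Leaving out *Tet2*-KO replicate 5 took the median log2 fold change of the 10 genes to -1.17. Without WT replicate 2 it was -0.80, and without both libraries -1.002. The 4 genes with the lowest ratios stayed the lowest when both were left out, with log2 fold changes of -3.02 ± 0.55 for *Spp1*, -2.36 ± 0.70 for *Gpnmb*, -2.36 ± 0.50 for *Lgals3* and -2.21 ± 0.24 for *Acp5* (SE). Without *Tet2*-KO replicate 5 alone the other 6 genes were at -0.86 for *Trem2*, -0.90 for *Cst7*, -0.82 for *Axl*, -1.26 for *Cd68*, -0.70 for *Cd9* and -1.08 for *Fabp5*. For these 6 the values without both ran from -0.54 for *Cd9* to -1.03 for *Cd68*. Of the 10 genes 6 had no overlap between the groups without *Tet2*-KO replicate 5, beside 4.78% of all tested genes with every *Tet2*-KO mouse lower, and 6 without both mice, beside 4.87%. The leave-out of both mice, and the choice to show replicate 5 among the single mice, were made after the data had been seen. With any other single mouse left out, 1 or 2 of the 10 had no overlap, and the share of all tested genes was not worked out there. In those fits edgeR called 0 or 1 of the 10, beside 0 to 13 of all tested genes.

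The number of these genes past an adjusted p of 0.05 is a property of the contrast that chose them. The quasi-likelihood test of edgeR called 1 of the 10, *Acp5*, beside 0.0246% of all tested genes called lower. At an unadjusted edgeR p below 0.05 there were 7 of 10, beside 12.2%. The Wald test of DESeq2 called *Gpnmb*, *Lgals3*, *Acp5* and *Fabp5*, 4 of the 9 genes to which it gave an adjusted p (*Spp1* got none), beside 5.13%. With limma-voom 5 of 10 passed, those 4 and *Spp1*, beside 6.38%. With edgeR without *Tet2*-KO replicate 5 there were 6 of 10, the same 5 and *Axl*, beside 7.3%.

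The order of the mice was much the same from gene to gene. *Tet2*-KO replicate 1 was the lowest of its group for 8 of the 10 genes and replicate 6 for the remaining 2, *Acp5* and *Fabp5*. Replicates 1, 2, 3 and 6 of the *Tet2*-KO group were below the WT range for all 10 genes, replicate 4 for 6 and replicate 5 for 1, *Acp5*. The median log2 ratio of the 10 genes to the WT mean was -2.27 in *Tet2*-KO replicate 1, -1.46 in replicate 6, -1.43 in replicate 3, -1.07 in replicate 2, -0.65 in replicate 4 and -0.08 in replicate 5. In WT mice replicate 2 was highest and replicate 1 next highest for all 10, while the lowest place was shared by replicates 3, 4 and 6.

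**Figure D3:**
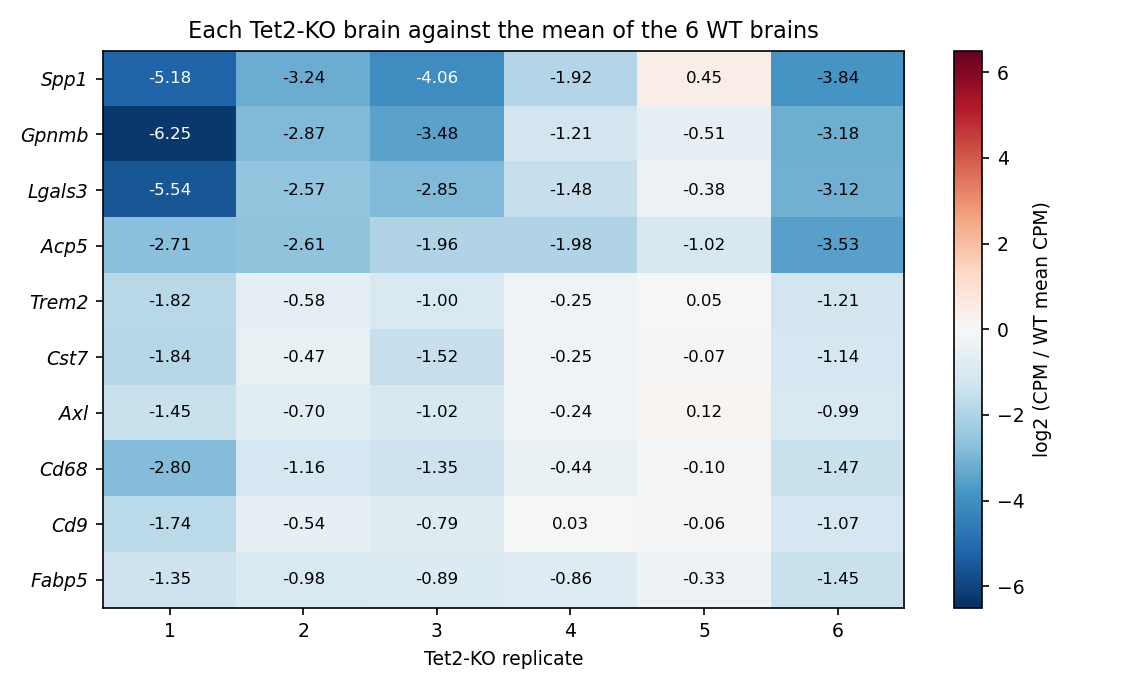
Log2 ratio of each gene's CPM in each *Tet2*-KO brain to the mean CPM of the 6 WT brains, written in each cell, with blue for lower and red for higher. *Spp1*, *Gpnmb* and *Lgals3* are below -5 in replicate 1, and replicate 5 holds the values nearest to 0 for every gene but *Cd9*.

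The *Tet2*-KO mice differed more among themselves than the WT mice did in the fold range of these genes. The highest *Tet2*-KO mouse had 49.6 times the CPM of the lowest for *Spp1*, 53.4 times for *Gpnmb* and 35.7 times for *Lgals3*, against 2.40, 3.57 and 2.81 times within WT. For *Cd68* the range was 6.51-fold within *Tet2*-KO and 2.28-fold within WT mice, and for *Acp5* 5.71-fold and 2.36-fold. *Fabp5* had the narrowest range, 2.17-fold within *Tet2*-KO and 1.78-fold within WT mice. No test was made of these ranges, each of which rests on 2 mice.

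Within the groups the 10 genes followed each other. The Pearson correlation of each gene's deviations from its group mean (log2 CPM, 12 mice) with the mean standardized deviation of the other 9 genes was lowest for *Acp5* (r = 0.77, Spearman rho = 0.77) and next for *Fabp5* (r = 0.86, rho = 0.83). For the other 8 it ran from 0.90 for *Cst7* to 0.98 for *Axl*. Without the mice farthest from the middle, *Tet2*-KO replicates 1 and 5, r was 0.75 for *Acp5*, 0.78 for *Fabp5* and 0.89 for *Spp1*. Taken a group at a time, the median r over the 45 pairs of these genes was 0.91 in the 6 WT mice and 0.91 in the 6 *Tet2*-KO mice. The libraries were sequenced on 1 lane, and these correlations are a description with no test.

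Of the genes outside the set, *Gusb*, *Adap2*, *Capg*, *Grn* and *Ctsh* had the highest correlation with the mean of the 10, each with r = 0.99. *Gusb* (beta-glucuronidase), *Grn* (progranulin) and *Ctsh* (cathepsin H) code for lysosomal proteins, and *Capg* caps actin filaments. *Gusb* was at 63.1 ± 16.0 CPM in WT and 33.5 ± 15.0 CPM in *Tet2*-KO mice (SD, n = 6 each). The lowest correlations were those of *2900011O08Rik* (r = -0.97), *Rph3a* (r = -0.97), a synaptic vesicle protein gene, *Gm24340* (r = -0.96), *Peg13* (r = -0.96) and *Trappc11* (r = -0.96). *Rph3a* was at 291 ± 23.8 CPM in WT and 347 ± 43.9 CPM in *Tet2*-KO mice (SD, n = 6). Over all 20280 tested genes that are not among the 10, the median r was -0.01, and 964 had an r over 0.9. The high values were not limited to lysosomal genes. The median r was 0.97 for 21 lipid and lysosome genes of activated phagocytes, 0.96 for 10 pan-macrophage markers and 0.96 for 7 fibroblast markers. It was 0.90 for 10 homeostatic microglia markers and -0.84 for 7 neuron markers.

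Per length of exon, by mean level, *Spp1* was the most abundant of the 10 in both groups, but in *Tet2*-KO mice this rested on replicate 5. That mouse had 709.5 CPM of *Spp1* and the next 137 CPM. The *Tet2*-KO median was 45.6 CPM for *Spp1* (1648 exon bases) and 51.4 CPM for *Cd68* (1257 exon bases), so by median *Cd68* was above *Spp1*. Levels in TPM, the counts over the summed exon length as a share of the library, were 1030 ± 345 for *Spp1* and 318 ± 110 for *Cd68* in WT mice (SD, n = 6). *Gpnmb* (168 ± 82.3 TPM), *Cd9* (116 ± 29.7), *Cst7* (107 ± 36.1), *Lgals3* (91.5 ± 37.0) and *Axl* (89.8 ± 19.7) followed in WT, and neighbours from *Gpnmb* to *Axl* in that order did not differ beyond their SD. *Fabp5* (50.7 ± 9.63 TPM) and *Trem2* (42.3 ± 14.3) lay within each other's SD, and *Acp5* was last at 7.17 ± 2.47 TPM. The *Tet2*-KO order of means had the same first and second places, with 315 ± 516 TPM for *Spp1* and 156 ± 86.7 TPM for *Cd68*, which did not differ beyond the SD of *Spp1*. *Gpnmb* stood at rank 3 in WT and rank 6 in *Tet2*-KO mice (40.4 ± 42.7 TPM), and *Lgals3* at rank 6 and rank 9 (23.3 ± 23.8 TPM). By the length of the longest transcript, *Gpnmb* was at rank 3 and rank 4, and *Lgals3* at rank 5 and rank 7.

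Markers common to macrophages and microglia also had lower fitted levels in *Tet2*-KO mice. In the list of 10 pan-macrophage markers (among them *Ptprc*, *Csf1r*, *Mpeg1* and *Laptm5*) all 10 were below 0, the median log2 fold change being -0.84 (range -1.16 to -0.53) and -1.10 without *Tet2*-KO replicate 5. Their summed level ran from 1094 to 2126 CPM in WT and from 289 to 1402 CPM in *Tet2*-KO mice, where replicate 5 held the highest sum. edgeR called none of the 10 and 5 without *Tet2*-KO replicate 5, beside 7.3% of all tested genes lower in that fit. At an unadjusted edgeR p below 0.05 there were 7, beside 12.2%, and DESeq2 called 2, beside 5.13%. Homeostatic microglia markers had a median log2 fold change of -0.21 over 10 genes, with *P2ry12* at 0.05 ± 0.12 and *Tmem119* at -0.13 ± 0.20 (SE), and a summed level of 754 to 1374 CPM in WT and 355 to 957 CPM in *Tet2*-KO mice. Their part in the result was not tested.

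Set against the pan-macrophage markers of the same brain, the 10 genes differed among themselves. The log2 ratio of *Spp1* to the geometric mean of those markers was 3.01 ± 0.16 in WT and 1.08 ± 1.27 in *Tet2*-KO mice (SD, n = 6), a difference of -1.93, with *Tet2*-KO replicate 5 at 3.42. For *Gpnmb* the difference was -1.81, for *Lgals3* -1.60 and for *Acp5* -1.26. For *Acp5* the ratio of each *Tet2*-KO mouse was under that of each WT mouse, and this held for 5 of 6 in *Spp1*, *Gpnmb* and *Lgals3*. The share of all tested genes was not worked out on this scale, and the contrast had chosen these genes. The counts of mice are therefore a description only. The ratios of *Trem2*, *Cst7*, *Axl*, *Cd9* and *Fabp5* differed by 0.23, 0.15, 0.29, 0.31 and 0.02, with higher means in *Tet2*-KO mice, and that of *Cd68* by -0.19. Set against the homeostatic microglia markers, the means of all 10 were lower in *Tet2*-KO mice, from a difference of -0.35 for *Cd9* to -2.59 for *Spp1*.

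**Figure D4:**
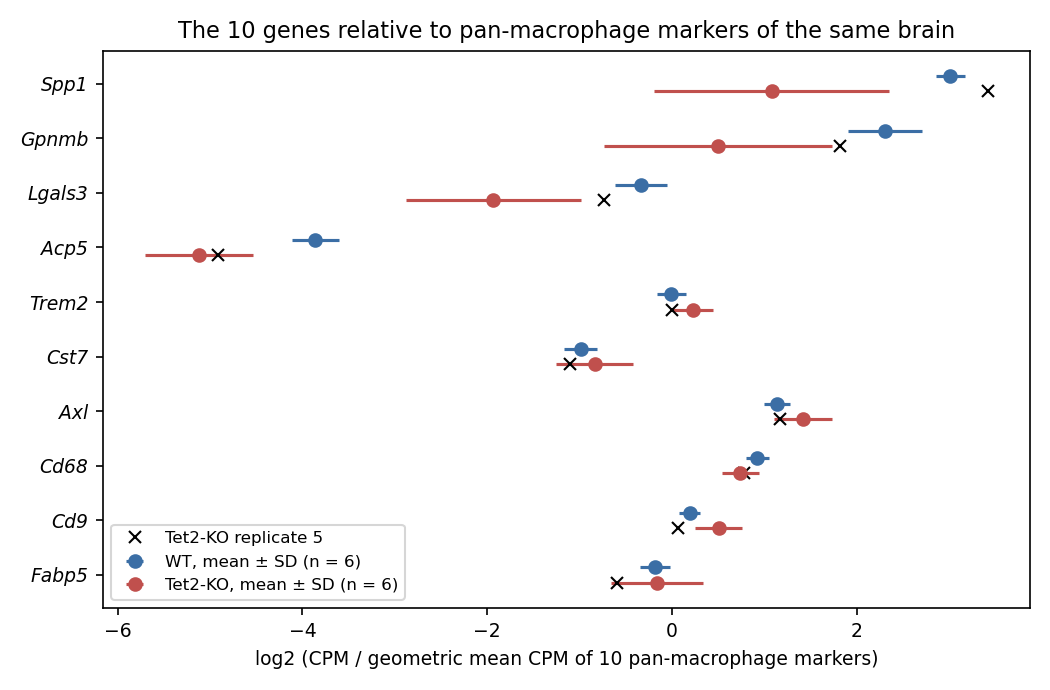
Log2 ratio of each gene's CPM to the geometric mean CPM of 10 pan-macrophage markers in the same brain, as mean ± SD of 6 WT (blue) and 6 *Tet2*-KO (red) mice, with a cross for *Tet2*-KO replicate 5. *Tet2*-KO minus WT is -1.93 for *Spp1* and 0.02 for *Fabp5*, and the cross of *Spp1* lies to the right of the WT mean.

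Markers of other cell types were read in the same way. Of 7 tested monocyte markers all 7 had lower fitted levels (median log2 fold change -1.77, summed level 126 to 182 CPM in WT and 63.5 to 139 CPM in *Tet2*-KO mice). Border-associated macrophage markers were lower in 5 of 7 (median -0.81, 48.0 to 84.4 and 14.8 to 59.4 CPM). All 7 fibroblast markers were lower (median -1.30, 622 to 1383 and 174 to 792 CPM), and all 4 tested T cell markers were lower (median -0.93, 11.5 to 18.4 and 6.12 to 11.2 CPM). Of 9 neutrophil markers 4 were tested and all 4 were lower (median -2.36), with summed levels of 7.22 to 21.1 CPM in WT and 1.77 to 6.20 CPM in *Tet2*-KO mice. edgeR called *S100a8* and *S100a9* (edgeR adjusted p = 0.036 for both), beside 0.0246% of all tested genes called lower. *Ly6g* had at most 1 count per library. Astrocyte markers were lower in 6 of 7 (median -0.34, 2021 to 4122 and 1174 to 3161 CPM). Endothelial markers had a median of -0.11 over 7 genes (296 to 368 and 284 to 343 CPM). The median for 7 oligodendrocyte markers was 0.03 (2912 to 3805 and 2681 to 3677 CPM). All 7 neuron markers had higher fitted levels in *Tet2*-KO mice (median 0.25), with 2667 to 3963 CPM in WT and 3499 to 4860 CPM in *Tet2*-KO mice. Their part in the levels of the 10 genes was not tested.

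**Figure D5:**
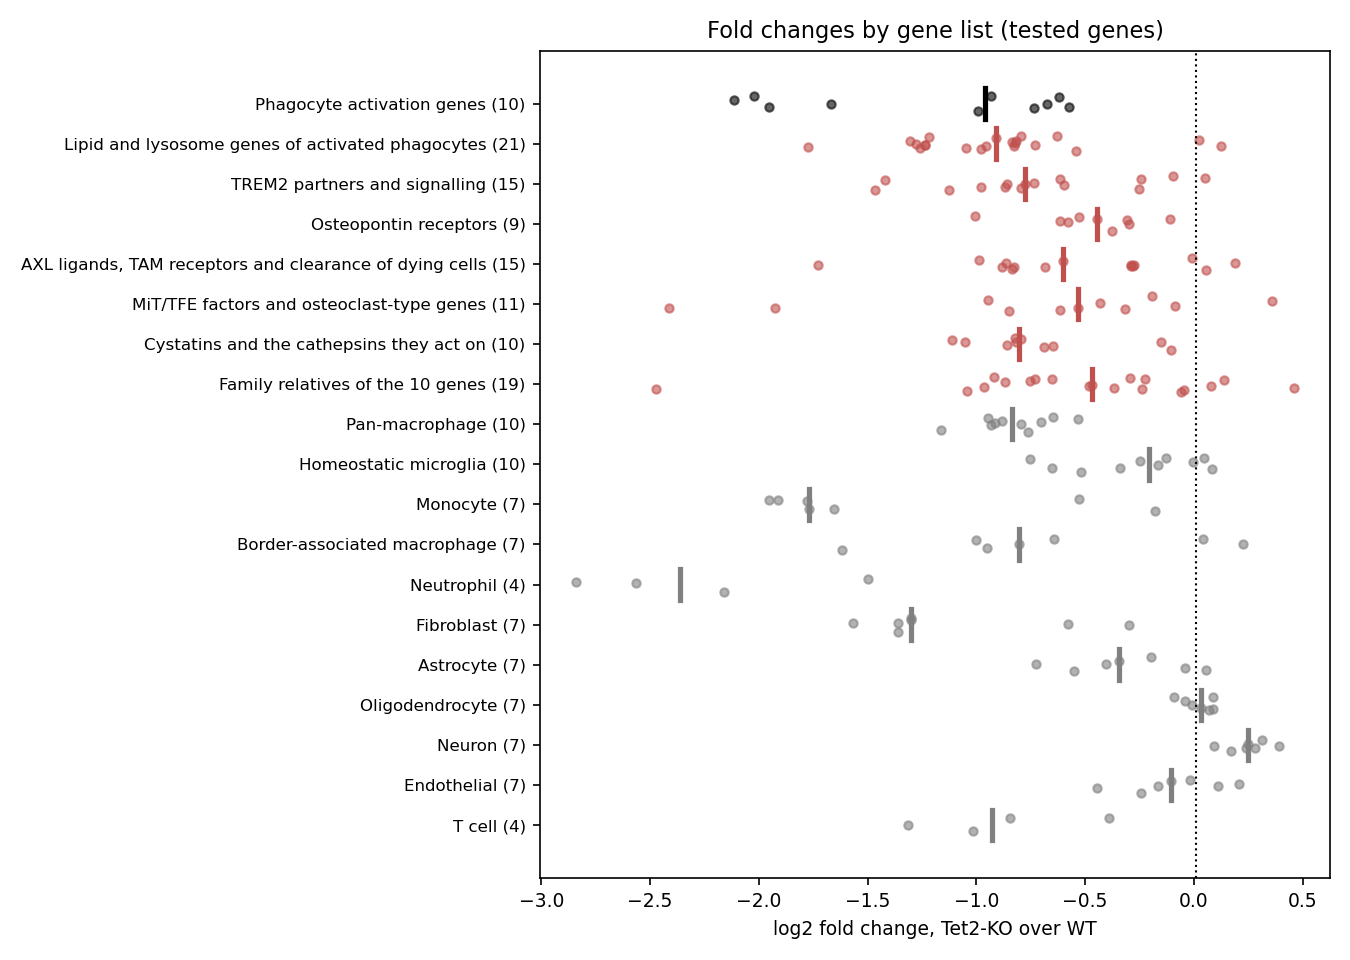
Log2 fold change, *Tet2*-KO over WT, of each tested gene (points) and the median (bar) of the 10 genes (black), 7 lists of related genes (red) and 11 lists of cell markers (grey), with the number of tested genes in brackets and a dotted line at the median of all tested genes, 0.01. The 10 genes have a median of -0.96, and the neuron list lies to the right of the dotted line.

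Genes that work with the 10 were read in 7 lists holding 107 different genes, of which 95 were tested. edgeR called none of the 95. Its unadjusted p was below 0.05 for 67 genes on the lower side and 1 on the higher, against 12.2% of all tested genes lower and 10.8% higher. DESeq2 called 20 of 90 with an adjusted p, all lower, and limma-voom called 43 of 95, all lower. Without *Tet2*-KO replicate 5 edgeR called 43 lower and 1 higher, *Tyro3*, and the medians of the 7 lists ran from -1.12 to -0.52. The median log2 fold change of the 95 was -0.65, with 86 below 0.

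Lipid and lysosome genes of activated phagocytes had the lowest median of the 7 lists, -0.91 over 21 tested genes, and 19 of them were on the lower side with an unadjusted edgeR p below 0.05, and 1 on the higher. *Plin2*, which coats lipid droplets, was at 59.7 ± 16.5 CPM in WT and 25.1 ± 15.7 CPM in *Tet2*-KO mice (SD, n = 6, log2 fold change -1.26 ± 0.38 SE, edgeR adjusted p = 0.13). *Capg* was at -1.28 ± 0.40 and *Ctsb*, cathepsin B, at -0.80 ± 0.26 (log2 ± SE, edgeR adjusted p = 0.13 for both). The gene at the other end was *Cadm1*, an adhesion molecule, at 0.12 ± 0.06 (edgeR adjusted p = 0.21).

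Around TREM2, 14 of 15 tested partners and signalling genes had lower fitted levels, with a median log2 fold change of -0.78. *Tyrobp*, the adaptor that TREM2 needs to signal, was at 76.9 ± 27.2 CPM in WT and 42.4 ± 20.2 CPM in *Tet2*-KO mice (SD, n = 6), with a log2 fold change of -0.86 ± 0.33 beside -0.67 ± 0.32 for *Trem2* (SE). *Syk*, the kinase recruited by TYROBP, was at -1.13 ± 0.37, and *Adam17*, a protease that sheds TREM2, at -0.60 ± 0.15. *Ms4a6d*, of the MS4A family, was at -1.42 ± 0.44. The edgeR adjusted p of these 4 genes ran from 0.11 for *Adam17* to 0.17 for *Tyrobp*.

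For 9 tested receptors of osteopontin the median log2 fold change was -0.45, with all 9 below 0, from -1.01 for *Cd44* to -0.11. *Spp1* was at -1.67 ± 0.88 (SE), and the difference was not tested. *Cd44*, a receptor for osteopontin and hyaluronan, was at 58.3 ± 23.0 CPM in WT and 29.0 ± 15.8 CPM in *Tet2*-KO mice (SD, n = 6, edgeR adjusted p = 0.16). The integrin subunits *Itga4* (-0.53 ± 0.12), *Itga9* (-0.38 ± 0.12) and *Itga5* (-0.62 ± 0.20, log2 fold change ± SE) had edgeR adjusted p values of 0.11 to 0.13.

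In the TAM and clearance list the 3 receptor kinases had values on both sides of 0. Beside -0.62 for *Axl*, *Mertk* was at -0.28 ± 0.17 (log2 fold change ± SE, edgeR adjusted p = 0.35) and *Tyro3*, which is abundant in neurons, at 0.19 ± 0.09 (edgeR adjusted p = 0.22). Their ligand *Gas6* was at 101 ± 15.8 CPM in WT and 82.7 ± 12.3 CPM in *Tet2*-KO mice (SD, n = 6, log2 fold change -0.29 ± 0.11, edgeR adjusted p = 0.16). *Cd36*, a scavenger receptor for oxidized lipid, was at 8.54 ± 2.71 and 2.61 ± 1.21 CPM (SD, n = 6, log2 fold change -1.73 ± 0.28 SE, edgeR adjusted p = 0.075), and its groups did not overlap. *Lrp1*, a clearance receptor of many cell types, was at -0.29 ± 0.11 (edgeR adjusted p = 0.14). The list's median was -0.60 over 15 tested genes.

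Among the MiT/TFE factors and osteoclast-type genes, *Mitf* was at 33.4 ± 5.53 CPM in WT and 24.8 ± 4.83 CPM in *Tet2*-KO mice (SD, n = 6, log2 fold change -0.43 ± 0.13 SE, edgeR adjusted p = 0.12). *Ctsk*, the collagen-cleaving cathepsin K of osteoclasts, was at -0.85 ± 0.18 and *Mmp9*, a matrix protease, at -0.95 ± 0.24 (log2 fold change ± SE, edgeR adjusted p = 0.11 for both). The median of the 11 tested genes was -0.53. *Atp6v0d2*, a proton pump subunit of osteoclasts and some macrophages, had the lowest log2 fold change of this list, -2.41 ± 0.77, and was named after its values were seen.

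Cystatins and their cathepsins had a median log2 fold change of -0.81 over 10 tested genes, all below 0. *Ctsc*, the cathepsin that cystatin F holds in check, was at 66.7 ± 17.8 CPM in WT and 31.1 ± 19.2 CPM in *Tet2*-KO mice (SD, n = 6, log2 fold change -1.11 ± 0.36 SE, edgeR adjusted p = 0.13), beside -0.74 ± 0.33 for *Cst7*. *Cstb*, the cytosolic stefin B, was at -0.65 ± 0.16 (edgeR adjusted p = 0.11). *Cst3*, the cystatin of many brain cells, was at 753 ± 97.9 and 699 ± 110 CPM (SD, n = 6, log2 fold change -0.11 ± 0.10 SE, edgeR adjusted p = 0.58).

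Of 19 tested family relatives of the 10 genes 16 were below 0, and the median log2 fold change was -0.47. *Fabp4*, the fatty acid carrier of fat cells and macrophages, was at 2.93 ± 1.06 CPM in WT and 0.55 ± 0.67 CPM in *Tet2*-KO mice (SD, n = 6, log2 fold change -2.47 ± 0.53 SE, edgeR adjusted p = 0.11), with 0 to 59 counts per library. *Fabp7*, the carrier of radial glia and astrocytes, was at -0.65 ± 0.16 (edgeR adjusted p = 0.11). *Lgals8*, another galectin, was at -0.30 ± 0.10 (edgeR adjusted p = 0.13), against -1.95 for *Lgals3*. Other galectins, named after their values were seen, were *Lgals1* at -0.92 ± 0.32, *Lgals9* at -0.87 ± 0.35, *Lgals4* at -0.23 ± 0.22 and *Lgals12* at 0.46 ± 0.23.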

How the data were processed

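Bulk RNA-sequencing was done on rRNA-depleted total RNA from the brains of 12 mice. The authors trimmed reads with Trimmomatic 0.36, aligned them with STAR 2.5.2b to mm10 and counted them per gene with featureCounts of Subread 1.5.2, according to the submitters' processing notes. The deposited values are raw counts, and all columns belong to the 12 samples. The strand setting is not given in the sources used here. The treatment entry of the labels names control cells for both groups, so groups came from titles and genotypes.

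Symbols, coordinates and exon lengths came from GENCODE (GRCm38) and start regions from RefSeq. Genes were filtered with filterByExpr, scaled with TMM and tested with the robust quasi-likelihood test of edgeR 4.0.16 (R 4.3.3, all 12 mice, no covariate, Benjamini-Hochberg adjustment, threshold 0.05). DESeq2 1.42.0 and limma-voom with sample weights (limma 3.58.1) were alternatives. The SE is the log2 fold change over the square root of F. Log2 CPM used a prior count of 2. On counts simulated for this comparison (20103 genes, 200 changed), edgeR found 98% of those altered, with a false share among calls of 6.22% (DESeq2 8.41%, limma-voom 7.11%). The simulation gave all genes the same median dispersion and held no library like WT replicate 2 or *Tet2*-KO replicate 5. It checked that the code ran as meant and does not give the share of true changes found in these mice.

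The 10 genes and all lists were chosen with earlier results of these data known. Named besides them were the 3 genes of smallest edgeR p in each related list, *Tyrobp*, *Gas6*, *Mertk*, *Tyro3*, *Cd44*, *Mitf*, *Cst3*, *Tet2*, and the 5 most and 5 least alike genes of mean log2 CPM of at least 0. Replicates are separate mice per the labels.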

Additional observations from a re-analysis of the deposited data

Results flagged for a closer look

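In 7 of the 20 groups of 6 mice (10 genes in 2 genotypes) the highest mouse was separated from the next by more of the group's range than Dixon's 95% critical value allows. The lowest mouse was tried as well, and for normally distributed values chance alone flags either end in about 1 group in 20. The CPM values were not checked for such a distribution, and the 10 genes are not independent of each other. WT replicate 2 accounted for 6 of the 7, with 873.6 CPM of *Spp1* (next 525 CPM), 109 CPM of *Trem2* (next 63.4), 54.9 CPM of *Cst7* (next 32.1), 200.04 CPM of *Axl* (next 142), 211 CPM of *Cd68* (next 120.0) and 111 CPM of *Cd9* (next 76.7). The remaining one was *Tet2*-KO replicate 5, with 709.5 CPM of *Spp1* against 137 CPM in the next *Tet2*-KO mouse. No explanation for either mouse was tested.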

How the results depend on the processing

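All 10 genes kept a negative log2 fold change in every alternative run that kept them. Of 189 such values 188 moved by less than the SD between mice. Most of these runs left out a single mouse, which by itself can shift a group mean by only part of that SD. The 188 are therefore no measure of how stable the values are. The median log2 fold change ran from -1.17 to -0.80 with single mice left out. Genes of the 10 past an adjusted p of 0.05 numbered 1 with edgeR, 4 with DESeq2, 5 with limma-voom, 0 with at least 10 counts required in every library (which drops *Acp5*), 0 to 6 with single mice left out (6 without *Tet2*-KO replicate 5) and 4 without both WT replicate 2 and *Tet2*-KO replicate 5, chosen after seeing the data. At an unadjusted edgeR p below 0.05 there were 7 with all mice in, beside 12.2% of all tested genes lower. With single mice left out there were 3 to 10 (3 without WT replicate 2). The share of all tested genes at that p was not worked out with mice left out, here or for the related genes below. Genes without overlap between groups numbered 1 to 6 with single mice left out (6 without *Tet2*-KO replicate 5, beside 4.78% of all tested genes) and 6 without both, beside 4.87%. Related genes past the threshold numbered 0 with edgeR, 20 with DESeq2, 43 with limma-voom, 2 without the filter on low counts, 0 to 44 with single mice left out and 31 without both, and those at an unadjusted p below 0.05 went from 68 to between 38 and 78. All tested genes past the threshold numbered 5 with edgeR, 1489 with DESeq2, 1863 with limma-voom, 44 without the filter, 0 with 10 counts in every library, 0 to 2257 with single mice left out (2257 without *Tet2*-KO replicate 5) and 1554 without both. The fit with a replicate block called 0 of the 10 and 0 of all genes. The shared replicate numbers do not pair mice (correlation of same-numbered deviations from -0.17 to 0.23, and 1 of the 6 numbers matched best with itself), so the block says nothing of a paired design. Except where a setting names its own cause, the cause was not tested. Counts of 5 to 28 per *Tet2*-KO library limit *Acp5*.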
